A study of Bos taurus with 12 samples.

Results

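The first 700000 bp of bovine chromosome 1 hold many CpG sites that passed the authors' test for a difference in sperm methylation between bulls of low and high daughter fertility. The block described here takes every listed locus of chromosome 1 that starts at or after position 200000 and ends at or before position 700000, on the ARS-UCD1.2 build. It contained 873 of the 17730 single CpG sites and 580 of the 7290 windows of 500 bp in the authors' deposited tables. These windows are called tiles below. The block was chosen because differences that passed the authors' test gather there in number, so its differences, p-values and q-values are described and support no test of their own. By share, 6.76% of its sites had q below 0.05, against 8.11% over all listed sites and 6.07% on the autosomes other than chromosome 1.

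The samples were sperm DNA from 6 samples labelled low daughter fertility and 6 labelled high daughter fertility, all from males, with no age, breed or batch given in the labels, nor how daughter fertility was measured. Methylation was read by EM-seq, an enzymatic method that converts the cytosines lacking a methyl group without the harsh chemistry of bisulfite. Each listed locus carries the authors' methylation difference between the groups in percentage points, with a p-value and a q-value. The direction of that subtraction is stated in neither headers nor labels, so a positive or negative sign is the sign as listed and is assigned to no group. Levels and coverage in single samples were not analysed here, so the depth is unknown, the tissue label could not be checked, and values are given without a spread between samples. Below, "called" means that a locus had q below 0.05 together with a difference of 10 points or more in either direction.

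CpG methylation is the addition of a methyl group to a cytosine that is followed by a guanine. Because the paired strand of a CpG reads the same, each CpG has a cytosine on both strands, and maintenance methylation in dividing cells usually keeps both alike. Mature mammalian sperm DNA is methylated at most CpGs, while CpG islands, short stretches rich in CpGs that often lie at gene starts, are mostly unmethylated.

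Called sites of both signs occurred side by side in the block. Of its 873 sites, 57 were called (6.53%), against a background of 5.94% over all listed sites. Of these, 24 were positive (2.75% of the listed sites of the block, background 1.16%) and 33 were negative (3.78%, background 4.78%). The background includes chromosome X. On the autosomes other than chromosome 1, 4.37% of listed sites were called, 1.32% positive and 3.04% negative. The share called in the block is close to the background and above that of the other autosomes. Since the block was picked from these calls nothing is read from this share. Over all 873 sites, 367 differences were positive and 498 negative, with a median of -0.933 points and quartiles of -5.34 and 2.64 points in the authors' deposited table. Among called sites the median absolute difference was 20.8 points in the block, against 23.4 points in the rest of chromosome 1, 18.5 points on the other autosomes and 16.8 points over all called sites outside the block. The difference reached 20 points at 30 called sites of the block, and 30 points at 5 of them. With no limit on size, 59 sites had q below 0.05 (6.76%, background 8.11%, other autosomes 6.07%).

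Among tiles, the differences of 10 points or more were mostly positive while the smaller ones were mostly negative. This holds at that limit only, since at 5 points or more and q below 0.05, 25 tiles were positive and 32 negative. Of the 580 tiles, 14 were called (2.41%, background 2.78%), with 10 positive (1.72%, background 0.151%) and 4 negative (0.690%, background 2.63%). At q below 0.05 and any size, 457 tiles passed (78.8%, background 71.8%), of which 378 were negative and 79 positive. For many tiles with small differences the q-value was below the p-value, so this limit is a loose one. The tile starting at 280901, for example, had q = 0.0447 with p = 0.131 by the authors' test. The median over all 580 tiles was -1.71 points in the authors' deposited table. Tiles start on a 100 bp grid, so neighbours overlap and are not separate observations. The 14 called tiles merged into 4 regions, 3 positive and 1 negative.

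**Figure D1:**
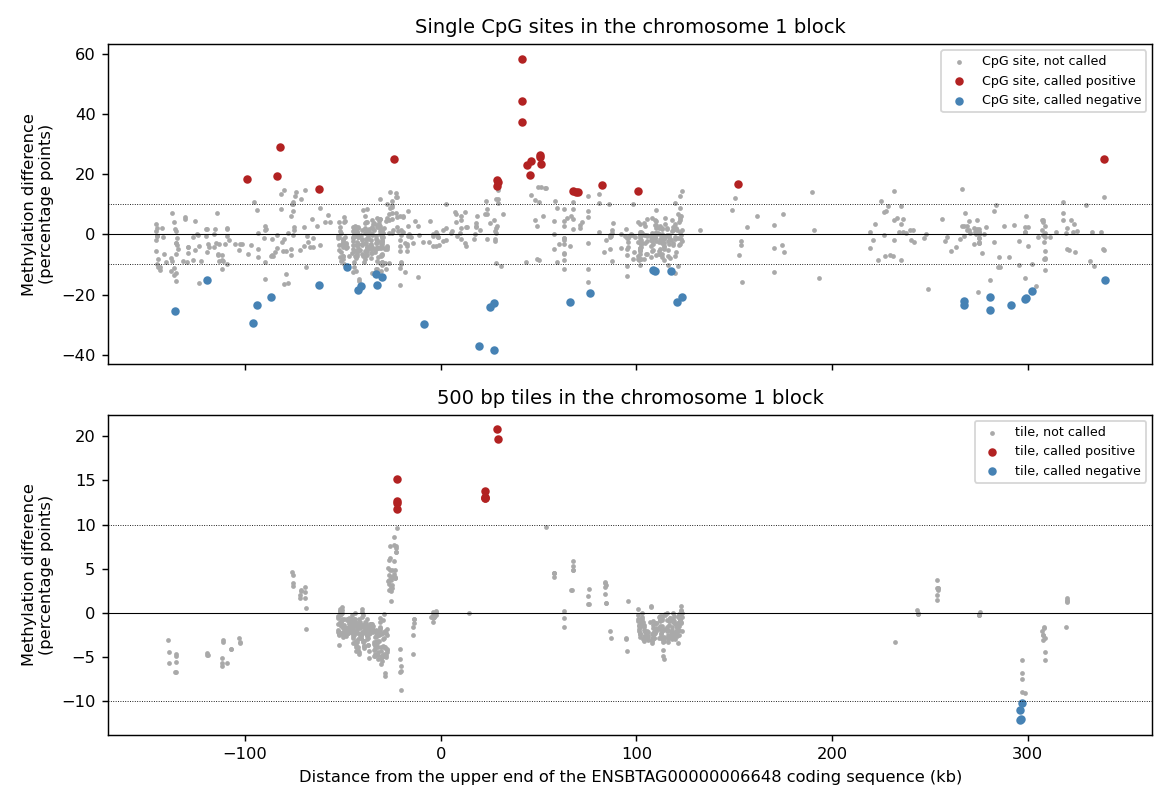
Methylation difference in percentage points (vertical axis) of the 873 sites (upper panel) and 580 tiles (lower panel), by distance in kb from the upper end of the annotated coding sequence of ENSBTAG00000006648. Red and blue points are called loci and grey points are not called, dotted lines mark 10 points either way, and the highest values are 58.5 points for sites and 20.8 points for tiles.

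Along the block the called sites changed sign 16 times, giving 17 runs of 1 sign, of which 7 had a single site. The first called site lay at position 214788 and the last at 689948, and the widest gap between neighbouring calls ran from 502455 to 617784. The longest run held 12 positive calls between positions 379125 and 401826. The next longest runs were negative, with 8 calls between 617784 and 652471 and 7 calls between 288315 and 320457. Of the 15 neighbouring pairs of calls less than 1000 bp apart, 13 shared their sign, and of the 42 pairs less than 10000 bp apart, 32 did.

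The run of 12 positive calls contained the 3 highest site differences of the block. They lay within 31 bp of each other, all on the minus strand, at positions 391927, 391943 and 391957. The authors' deposited table gave 58.5 points (q = 9.35e-21), 37.5 points (q = 7.85e-09) and 44.5 points (q = 2.05e-13). The first of them was the highest of all 17730 listed differences, and the others ranked 10 and 5. Their closest annotated feature is a coding segment of ENSBTAG00000006648, a protein-coding gene with no name in the files, 41538 to 41568 bp away, and the authors class them as distal intergenic. No tile covering these 3 sites was listed.

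On either side of these sites the positive differences continued with smaller values. In the authors' deposited table, sites at 394579, 395782 and 396502 stood at 23.1, 19.6 and 24.4 points. Farther along, sites at 401217, 401370 and 401826 stood at 26.4, 25.8 and 23.4 points in the authors' deposited table. At the low end of the run, sites at 379125, 379208 and 379580 had 16.1, 18.2 and 17.5 points in the authors' deposited table. Sites between the calls mostly had the same sign. From the first to the last call of the run 28 sites were listed, 24 positive and 4 negative, with a median of 15.3 points in the authors' deposited table. Of those 28 sites 24 were on the minus strand.

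Negative calls lay directly below this run, between positions 370077 and 377655, and had the lowest values. In the authors' deposited table the site at 377655 had -38.3 points (q = 5.73e-09) and the site at 370077 had -37.0 points (q = 8.02e-14), the 2 lowest differences of the block. The call at 375645 stood at -24.2 points (q = 0.000558) per the authors' deposited table. A further negative call lay 1 bp before the lowest one, at 377654, with -22.9 points (q = 0.00219) per the authors' deposited table. These 4 calls and the one at 341875 form a run of 5 negative calls from 341875 to 377655, a stretch with 50 listed sites, 29 positive and 20 negative, with a median of 0.715 points in the authors' deposited table. Between the negative call at 377655 and the first positive call at 379125 lay 1470 bp.

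**Figure D2:**
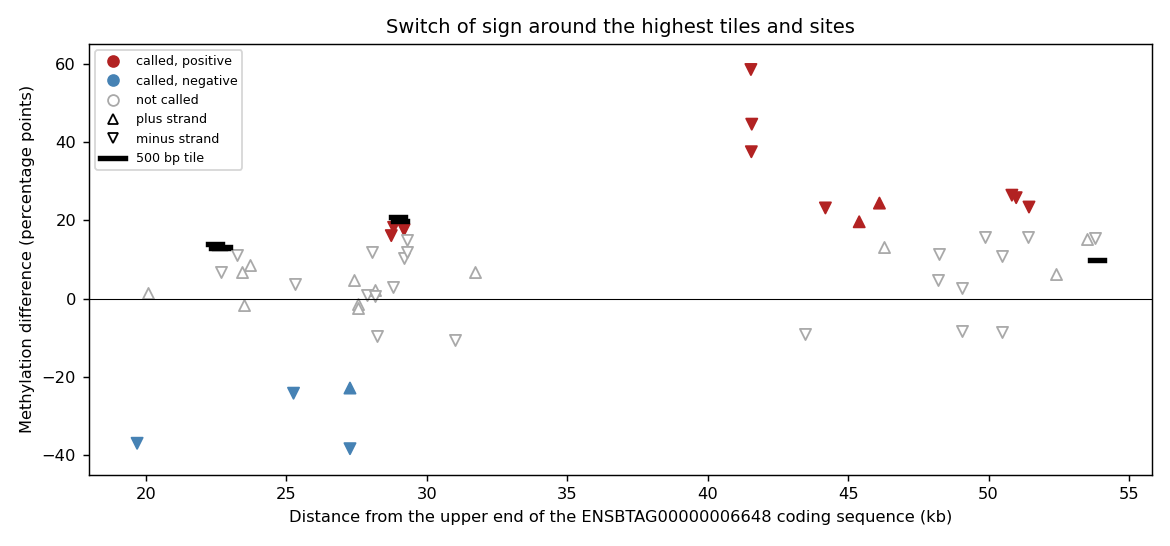
Sites and tiles around the highest values, as methylation difference in percentage points against distance in kb from the upper end of the ENSBTAG00000006648 coding sequence. Triangles pointing up and down are plus and minus strand sites, filled where called (red positive, blue negative), and black bars are tiles. Negative calls down to -38.3 points lie to the left of the positive calls, while every tile drawn is positive.

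The called positive tiles lay in 3 places, at the low end of the positive run and at 2 lower positions. The highest 2 tiles of the whole table covered positions 379101 to 379600 and 379201 to 379700. In the authors' deposited table they had differences of 20.8 points (q = 2.84e-58) and 19.7 points (q = 4.72e-57). The 7 listed sites inside them were all positive, between 2.95 and 18.2 points in the authors' deposited table, and 3 were called. All 7 were on the minus strand. These 2 were the only called tiles of the block that held a called site.

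A second positive region, from 372601 to 373400, lay between the negative calls at 370077 and 375645. Its 4 tiles had 12.97 to 13.82 points in the authors' deposited table, with q between 6.54e-39 and 1.46e-29. A single listed site fell inside, at position 373051, with 6.74 points (q = 0.391) per the authors' deposited table. The negative calls at 370077, 375645 and 377655 lay in no listed tile.

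Around the third positive region, from 327701 to 328500, the tile values went down, up and then below 0. Tiles starting at 326201, 326301 and 326401 had 8.59, 7.70 and 5.93 points in the authors' deposited table, and the one starting at 326601 had 3.93 points. The tile starting at 327601 had 9.59 points in the authors' deposited table, and those starting at 327701 and 328001 had 11.8 and 15.1 points. The next listed tile, starting at 329301, had -4.03 points, and the one starting at 329801 had -8.68 points (q = 1.07e-13), per the authors' deposited table. The tile differences thus turned from positive to negative across 800 bp with no listed tile. The 3 listed sites of this region had 5.63, 2.45 and 12.6 points in the authors' deposited table, and none was called. The closest called site, at 326430, stood at 25.1 points (q = 0.00167) per the authors' deposited table.

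The negative tile region lay inside a gene. Its 4 tiles, between positions 646401 and 647600, fell in an intron of ENSBTAG00000054829, the other protein-coding gene of the block, which the files give no name. The differences were -11.0, -12.1, -12.0 and -10.1 points in the authors' deposited table, with q between 3e-39 and 2.43e-24. No site was listed inside this region. The 5 further tiles within 2000 bp, from 647201 to 649100, were negative too, between -9.09 and -5.28 points in the authors' deposited table. The tile starting at 648601 held the called site at 649005, which had -21.6 points (q = 0.0143) per the authors' deposited table.

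Most of the called sites around that gene were negative, while the listed ones were of both signs. ENSBTAG00000054829 was the closest feature of 50 sites, 25 positive and 24 negative, with a median of 0.154 points in the authors' deposited table. Of these 7 were called (14%, background 5.94%), 1 positive and 6 negative. Of the 28 among these 50 that the authors class as within the gene, 5 were called and all 5 were negative (17.9%, background 4.78%). The lowest of these, at 631195, had -25.3 points (q = 3.44e-05) per the authors' deposited table, and a neighbour 84 bp before it, at 631111, had -20.6 points (q = 0.00849). Intronic sites at 641837 and 649825 stood at -23.4 and -21.2 points in the authors' deposited table. Over all 28 sites of this class 11 were positive and 16 negative, with a median of -3.20 points in the authors' deposited table. A further 19 sites, from 652471 to 661988, also lie in the gene's intron from 645954 to 668044. Their closest feature is the exon of a transcript, ENSBTAT00000064346, and 1 was called, negative (5.26%, background 4.78%). The positive call with ENSBTAG00000054829 as closest feature lay outside this gene, at 689624. It was 21284 bp beyond the coding sequence, with 25.2 points in the authors' deposited table. Another call 324 bp farther, at 689948, came with the opposite sign, at -15.2 points (q = 0.00341) per the authors' deposited table.

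ENSBTAG00000006648 was the closest feature of 496 sites and 347 tiles, more than any other feature of the block, although few lay in it. Only 10 of these sites were inside the gene, and 1 was called, an intronic site at 341875 with -29.7 points (q = 0.000174) per the authors' deposited table. In the authors' promoter class upstream of this gene 11 sites were listed, none called, with differences from -2.34 to 10.1 points in the authors' deposited table. Of all 496 sites 34 were called (6.85%), close to the background of 5.94%. The 447 classed as distal intergenic held 33 of these calls (7.38%), 17 positive and 16 negative. The intron that the authors give for 402 of the block's sites and 326 of its tiles is listed from 346960 to 339069, with its start above its end. Apart from 2 tiles between 347001 and 347800, these loci lie below the gene, and their distances run to position 339069.

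The files also give 3 transcripts of the block as closest features, each by an exon. The exon of transcript ENSBTAT00000082524, at positions 475398 to 475516, was the closest feature of 217 sites and 188 tiles. Of those sites 12 were called (5.53%, background 5.94%), 5 positive and 7 negative, and no tile was (background 2.78%). The 51 sites in the authors' promoter class of this transcript held 3 calls, all negative (5.88%), again close to the background. In the authors' deposited table they stood at -22.4 points (position 471357, q = 0.000172), -20.9 points (473597) and -12.2 points (468257). In the same class 62 of 66 tiles were negative, with a median of -1.52 points in the authors' deposited table. The exon of ENSBTAT00000065353, at 479417 to 479535, was the closest feature of 16 sites, 8 positive and 8 negative, and of no tile. Its only call, at 502455, had 16.7 points (q = 0.0128) per the authors' deposited table, and no site beyond it was called until 617784. The exon of ENSBTAT00000064346, at 658163 to 658288, was the closest feature of 19 sites, 6 positive and 13 negative, and of 9 tiles. Its only called site, at 652471, had -18.9 points (q = 0.0383) per the authors' deposited table. All 9 tiles were negative with q below 0.05, between -5.36 and -1.58 points in the authors' deposited table, and none was called.

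Loci inside CpG islands showed almost no difference. The authors annotate 3 islands in the block, of 1074, 893 and 813 bp, starting at 346693, 593738 and 625572. The 10 tiles classed as inside an island lay between -0.297 and 0.341 points in the authors' deposited table, and 2 of them had q below 0.05. The 9 sites classed as inside an island lay between -2.89 and 0.844 points in the authors' deposited table, and none had q below 0.05. The islands were the closest feature of 75 sites, most of them outside an island, and 2 of the 75 were called (2.67%). These are the 2 strands of a CpG near the third island. That CpG, 7787 bp before the island, had -22.1 points on the plus strand (position 617784) and -23.6 points on the minus strand (617785) in the authors' deposited table.

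**Figure D3:**
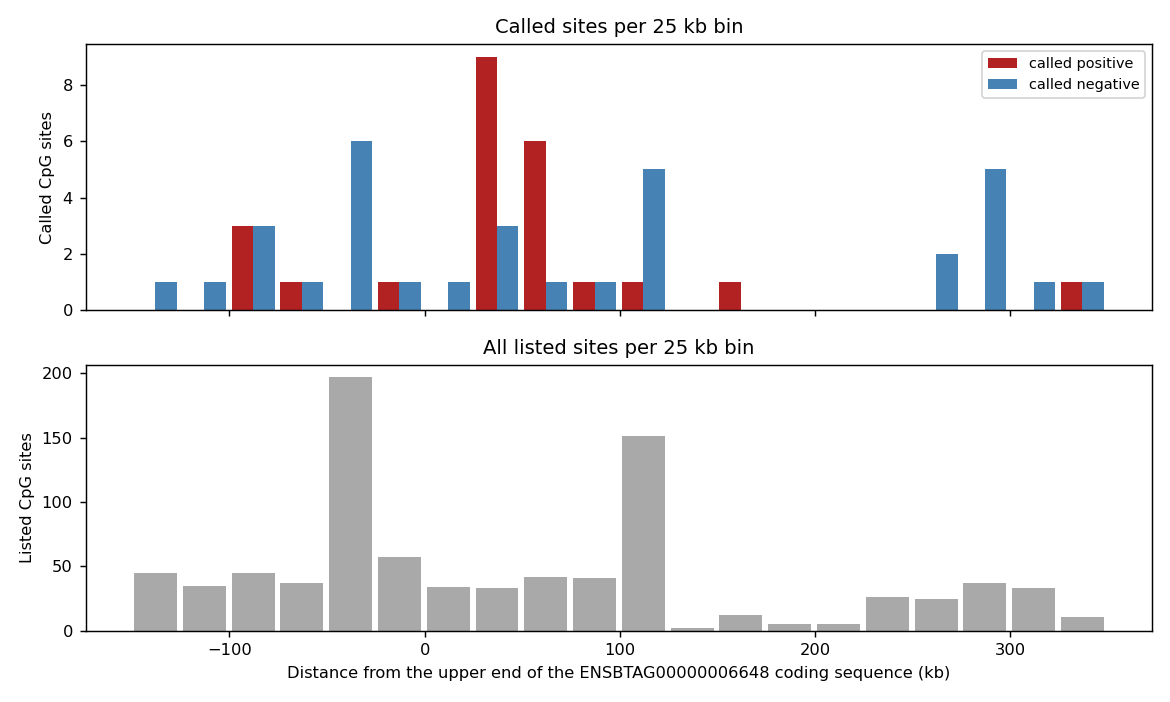
Called sites (upper panel, count, red positive and blue negative) and all listed sites (lower panel, count) per 25 kb bin, against distance in kb from the upper end of the ENSBTAG00000006648 coding sequence. The bin from position 375001 to 400000 has 9 positive and 3 negative calls among 33 listed sites, while the bin from 300001 to 325000 has 6 calls, all negative, among 197.

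Calls were not most frequent where most loci were listed. The 2 bins of 25 kb with the most sites, from 300001 to 325000 and from 450001 to 475000, held 348 sites (39.9% of the block) and 392 tiles (67.6%). Among them 12 sites were called (3.45%), 1 positive and 11 negative, and no tile. In the other 18 bins 45 of 525 sites were called (8.57%), 23 positive and 22 negative, together with all 14 called tiles. In the 2 dense bins 368 of 392 tiles had a negative difference, against 100 of 188 elsewhere in the block. These dense tiles were small in size, with bin medians of -2.13 and -1.84 points in the authors' deposited table. Between positions 350001 and 400000, by contrast, 67 sites were listed with 13 calls (19.4%, background 5.94%), 9 positive and 4 negative. All 7 tiles there were positive with a median of 13.1 points in the authors' deposited table. Of these, 6 were the overlapping called tiles given above, and the one starting at 364801 had 0.0269 points (q = 0.258).

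Sites inside and outside listed tiles gave different counts. The listed tiles formed 43 separate stretches and covered 81300 bp, or 16.3% of the block. They held 506 sites, of which 20 were called (3.95%), 6 positive and 14 negative. The 367 sites outside any listed tile had 37 calls (10.1%), 18 positive and 19 negative. The background over all listed sites was 5.94%, and this split was not made for sites outside the block. For 19 of the 20 called sites in a tile, every tile over the site had the site's sign. The exception, at 451243, had 14.5 points in the authors' deposited table, with 1 of its 4 tiles positive. The tile values were mostly far smaller than that of the called site. At 214788, for example, the site had -25.6 points and its 3 tiles -6.72 to -5.51 points in the authors' deposited table, each tile holding 8 listed sites. The called sites at 379125, 379208 and 379580 went the other way, with 16.1, 18.2 and 17.5 points under tiles of 19.7 to 20.8 points. The called tiles between 646401 and 647600 held no listed site, so tiles include CpGs that are not among the listed sites. Over the 495 tiles with a listed site, 384 (77.6%) had the sign of the mean of their sites, with a Spearman correlation of 0.50 as a description. Tiles and sites come from the same samples, and neighbouring tiles share sites.

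The called sites of the block were mostly read from the minus strand. Of 57 called sites 39 (68.4%) were on the minus strand, as were 19 of the 24 positive calls (79.2%) and 20 of the 33 negative calls (60.6%). Among the 816 sites not called, 423 (51.8%) were on the minus strand. Over called sites outside the block 508 of 996 (51.0%) were on the minus strand, and 91 of 181 positive ones (50.3%). Of the 12 positive calls in the longest run, 10 were on the minus strand, as were 24 of the 28 sites listed there. In that run the calls thus followed the strand of the listed sites. Neighbouring calls are not independent, so these shares describe the block and were not tested.

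Few CpGs were listed on both strands, and where they were the strands often differed. The 873 sites belong to 828 CpGs, of which 45 had both strands listed. Of the 57 called sites 9 had their partner on the other strand listed (15.8%, against 32.8% of called sites outside the block). The other 48 did not, and none of the 3 highest positive sites had one. Among the 45 CpGs 26 (57.8%) had the same sign on both strands, with a Spearman correlation of 0.15. Outside the block the corresponding values were 63.0% of 1780 CpGs and 0.33. Of the 7 CpGs in the block with at least 1 call, 4 had the same sign on both strands (57.1%). Outside the block 235 of 278 such CpGs did (84.5%), a contrast that rests on few CpGs here and was not tested. Of the 7 in the block, 2 were called on both strands. These 2 were the CpG at 617784, given above, and that at 377654, with -22.9 points on the plus strand and -38.3 points on the minus strand in the authors' deposited table. The CpG at 263404 had -7.24 points on the plus strand and -20.8 points on the minus strand in the authors' deposited table, and only its minus strand was called. At 317538 the plus strand was the one called, with -13.1 points, and the minus strand had -11.6 points, in the authors' deposited table.

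At the other 3 CpGs the strands had opposite signs, and in each the minus strand was the one called. At 214787 the plus strand had 1.94 points and the minus strand -25.6 points in the authors' deposited table. The CpG at 266895 had -4.46 points on the plus strand and 19.3 points on the minus strand in the authors' deposited table. For the CpG at 318017 the authors' deposited table gave 3.02 points on the plus strand and -16.7 points on the minus strand.

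**Figure D4:**
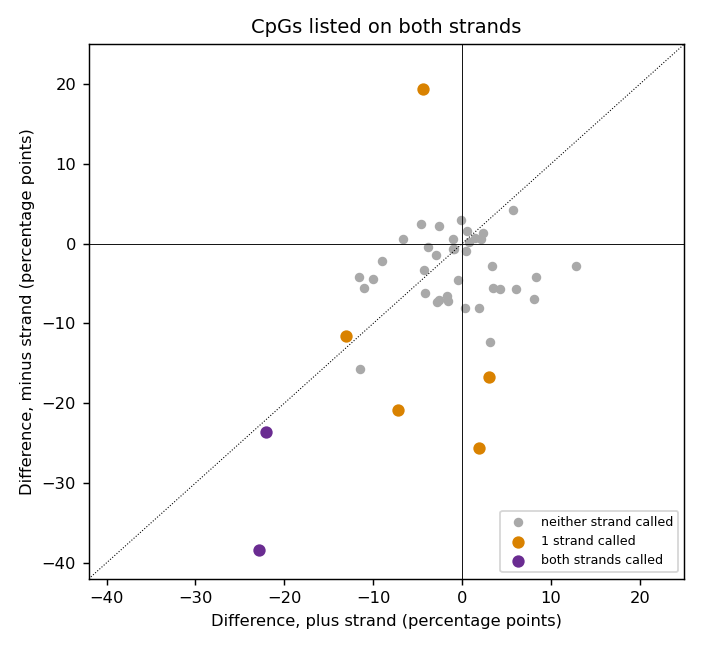
Methylation difference on the plus strand (horizontal axis) and the minus strand (vertical axis), both in percentage points, for the 45 CpGs of the block listed on both strands. The dotted line marks equal values, and 3 of the 5 orange points (1 strand called) have opposite signs on the strands, with the minus strand at -25.6, 19.3 and -16.7 points.

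Opposite calls also met at neighbouring CpGs of 1 strand. The minus strand sites at 288313 and 288315 are 2 bp apart and had 15.1 points (q = 0.0376) and -17.0 points (q = 0.0148) per the authors' deposited table. This was the closest pair of calls with unlike signs.

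In the lowest part of the block, up to position 300000, there were calls of both signs. Between positions 250001 and 300000 there were 4 positive and 4 negative calls among 82 sites (9.76% called, background 5.94%). The lowest of these in the authors' deposited table was -29.3 points at 254272 (q = 1.44e-05), and the highest was 29.2 points at 268436 (q = 0.00117). Between 200001 and 250000 both calls were negative (2.5% of 80 sites called). There 18 of the 80 sites were positive, and all 22 tiles were negative with a median of -4.69 points in the authors' deposited table.

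Set beside 2 other windows of 500 kb picked for their number of calls, the block had a larger share of positive and a smaller share of negative calls. Of the listed sites 6.53% were called in the block (background 5.94%), 16.9% in the chromosome 14 window and 8.95% in the chromosome 21 window. On chromosome 14, positions 13500000 to 14000000 held 301 sites, with 3 called positive (0.997%) and 48 negative (15.9%). Its 448 tiles had 49 called, all negative (10.9%). On chromosome 21, positions 32750000 to 33250000 held 525 sites, with 5 called positive and 42 negative, and 248 tiles, with 15 called, all negative. The block had 24 positive and 33 negative sites, and 10 positive and 4 negative tiles. All 3 windows were picked from their calls, so these counts were not tested against each other. In the rest of chromosome 1, 695 sites were listed with 8 called positive (1.15%) and 19 negative (2.73%), and 142 tiles with 3 called, all negative (2.11%). The 10 positive tiles of the block were all but 1 of the 11 in the whole table.

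**Figure D5:**
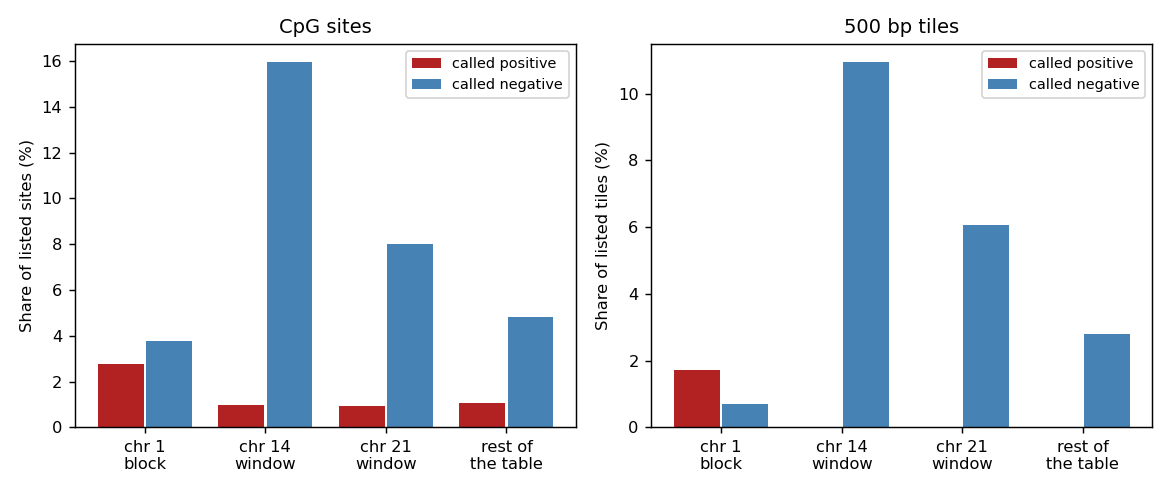
Share of listed sites (left, percent) and listed tiles (right, percent) called positive (red) and negative (blue) in the chromosome 1 block, the chromosome 14 and 21 windows, and the rest of each table. For sites the block has 2.75% positive and 3.78% negative calls, while the remaining loci have 1.07% positive and 4.83% negative calls.

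The limits of the block fell in gaps between listed loci. The last site below it, at 162310, had 9.57 points (q = 0.103) per the authors' deposited table, and the first inside, at 204698, had 1.06 points (q = 0.806). At the upper limit the last site inside, at 689948, was called and is given above, and the first outside, at 745701, had 1.23 points (q = 0.419) per the authors' deposited table. Only 4 sites and 4 tiles of chromosome 1 were listed below the block. The next tile above it started at 2733701. Close to the thresholds for a call, the weakest called site by size had -11.0 points (position 302442) in the authors' deposited table, and the largest difference with q below 0.05 that was too small had -9.03 points (320270). Of the 156 sites with at least 10 points 99 were not called, 45 positive and 54 negative, against 1094 of 2147 over all listed sites. The one in the block nearest to the q threshold had -16.2 points (272567, q = 0.0506) per the authors' deposited table. The tile nearest to a call, starting at 404001, had 9.72 points (q = 5.85e-10) per the authors' deposited table.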

How the data were processed

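Sperm DNA of 12 samples (6 low and 6 high daughter fertility) was profiled by EM-seq, per the labels' protocols. Per the submitters' processing notes the tools were Trimmomatic, Bismark and methylKit and the build was ARS-UCD1.2; settings are not given. The authors deposited 2 tables of their comparison, with a p-value and a q-value per locus, and a signed methylation difference in percentage points, per the file headers. The model, the q-value adjustment, the coverage minimum and the group subtracted are not given in the sources used here. Per-sample values were not analysed here, so the depth and the spread between samples are unknown and no test was run.

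Loci were selected by position, called where q was below 0.05 and the difference 10 points or more, and counted by sign with Python 3.11.15 and pandas 2.3.3. Called tiles of 1 sign that overlapped or adjoined were merged. Sites 1 bp apart on opposite strands were paired as a CpG. The merging, pairing and Benjamini-Hochberg steps were tested on simulated data. Every closest annotated feature is named, with full values for called tile regions, the 5 highest and 5 lowest called sites, the 5 largest tiles, and CpGs called on both strands or called with unlike signs. Other loci, such as those at the limits and thresholds, next to called tiles, and at other CpGs listed on both strands, were picked after their values were seen, as were the 25 kb and 50 kb bins and the windows on chromosomes 14 and 21, each the 500 kb on a 250 kb grid with the most called sites. The block and these choices were made with earlier results of these data known. The reference gene table, of the later assembly ARS-UCD2.0, matched 0 of the block's 2 gene identifiers, so no gene name is given. No genome sequence was used.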

Additional observations from a re-analysis of the deposited data

How the results depend on the processing

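Counts of calls depended on the size threshold and on which loci were counted. Of the sites, 57 were called in the main count (24 positive, 33 negative), against 30 (11 and 19) at 20 points or more, 32 (14 and 18) at q below 0.01, and 20 (6 and 14, 30.0% positive against 42.1%) inside a listed tile. Of the tiles, 14 were called (10 positive, 4 negative), against 57 (25 and 32) at 5 points or more, 1 positive and 0 negative at 20 points, and 4 regions (3 positive, 1 negative) after merging. Among the 10 called tiles that held a listed site, all were positive and 0 negative. The other alternatives left each count within 1.5 times: 5 points for sites, q below 0.01 for tiles, Benjamini-Hochberg adjustment over the listed loci, limits of 100000 and 800000, and 1 value per CpG. For the last, the strand with the lower p-value was kept, so each called CpG kept a call and the count was 55. It is therefore no check on CpGs whose strands differed. In all, 23 of the 42 alternative counts stayed within 1.5 times. No paired analysis was possible because the result comes from no test of single samples. Leaving out samples was not run for the same reason. Coverage was not analysed here, so its part in any difference was not tested.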
